A study of Drosophila melanogaster with 8 samples.

Results

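The central glutamate receptor genes are 8 genes, chosen by name, for glutamate receptors known from the fly central nervous system. The set is not complete, and other ionotropic receptor genes, such as CG11155, are given further below. The 8 include the AMPA-type subunits GluRIA and GluRIB, the NMDA-type subunits Nmdar1 and Nmdar2 and the kainate-type subunits KaiR1D and Ekar. The others are the metabotropic receptor mGluR and the glutamate-gated chloride channel subunit GluClalpha. All 8 were found among the 14175 genes of the files and all 8 passed the filter on low counts. Ventral nerve cords came from female Drosophila melanogaster larvae at the wandering stage of the third instar, and their messenger RNA was sequenced. Mutants were w;;witA12,st1/witB11,st1 (wit, 4 libraries) and controls were w;;witA12,st1/+ (4 libraries), both in a w1118 background, so that the witA12, st1 chromosome is present in every library and the controls are themselves heterozygous. The product of wit is a BMP receptor of type II, which carries signals from target tissues into neurons, and the labels do not give the lesions of its alleles. Each biological replicate was a pool of 25 nerve cords with the brain lobes removed, from larvae reared at 25 °C with 80 per vial.

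Glutamate is the transmitter of fly motor neurons at the neuromuscular junction, and it is also released by interneurons within the nerve cord. AMPA-, NMDA- and kainate-type receptors are cation channels built of 4 subunits that excite the cell. The metabotropic receptor acts through G proteins, and the glutamate-gated chloride channel, found in invertebrates, lets glutamate inhibit. The receptors of larval muscle are made of a different set of subunits, GluRIIA to GluRIIE, and are not among the 8 genes.

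Totals ran from 20923717 to 32028719 estimated counts in wit libraries and from 26746219 to 32740480 in controls. Values below are CPM, counts per 1000000 of the scaled library total. The wit transcript was at 82.1 to 91.0 CPM in mutants and 86.6 to 94.9 CPM in controls (edgeR adjusted p = 0.371), which does not check the genotype. Wit replicates 1 and 2 lay farthest apart within the mutants, at 14.0 and -15.3 on the second principal component, which held 15.3% of the variance. The neuronal gene elav stood at 1074 CPM in wit and 1156 CPM in control nerve cords and the glial gene repo at 108 and 113 CPM. Repo was not called, but the 8 glial markers listed summed to 1088 to 1619 CPM in wit and 1800 to 1863 CPM in controls. Muscle markers summed to 48.7 to 59.0 CPM in wit and 46.2 to 53.9 CPM in control libraries, mostly from sls. Of the 7 muscle markers tested, bt was lower, at 5.30 CPM in wit and 8.13 CPM in controls (edgeR adjusted p = 0.00505). The other 6 were not called. Genes listed as markers of the removed brain lobes summed to 34.7 to 37.5 CPM in wit and 35.6 to 37.3 CPM in controls, mostly from ey, at 26.5 and 24.7 CPM. The sum cannot tell leftover lobe tissue from expression of these genes in the nerve cord itself. Of the 5 such markers tested, the scarce gene so was lower, at 1.07 CPM in wit and 2.27 CPM in controls (edgeR adjusted p = 0.0209). The other 4 were not called.

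Central glutamate receptor transcripts differed little between wit and control nerve cords. By edgeR's quasi-likelihood test 2 of the 8 genes, mGluR and GluRIB, were lower in wit mutants and 0 were higher (Benjamini-Hochberg adjusted p under 0.05 over 9176 genes), and both falls were small: by the fitted fold change mGluR fell by 11.5% and GluRIB fell by 6.73%. In the same test 14.8% of all genes passed, 8.66% as lower and 6.12% as higher, so that nothing particular to the receptor genes is read from a count of 2 in 8. At an unadjusted p under 0.05, 3 were lower and 1 was higher. DESeq2 called 2 of the 8 lower and limma-voom (run with quality weights per library) 3, and neither called any higher. In either direction they called 16.2% and 23.3% of all genes. The count of 2 lower genes turned on single libraries: it was 0 without wit replicate 4, control replicate 3 or control replicate 4, 1 without wit replicate 2 or 3 or control replicate 1 or 2, and 3 without wit replicate 1, while the share of all genes that passed ran from 8.94% without control replicate 2 to 23.6% without wit replicate 1. The median log2 fold change, wit over control, was -0.04 over the 8 genes and 0.01 over all genes tested, and the median of its absolute size was 0.08 and 0.09. Groups did not overlap for mGluR and GluRIB, in both with every wit library below every control, which held for 11.7% of all genes, while 8.82% had every wit library above every control.

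**Figure D1:**
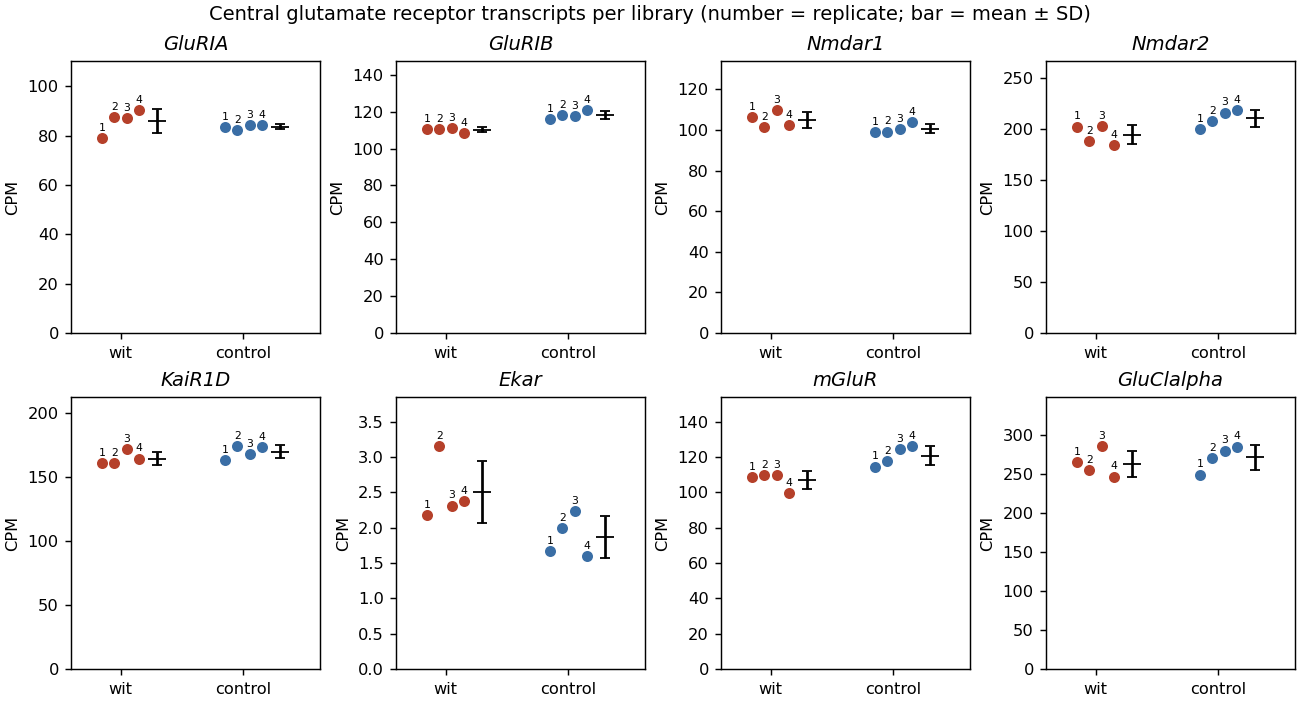
CPM of the 8 central glutamate receptor genes in each wit (red, left) and control (blue, right) library, with the replicate number above each point and the mean ± SD (n = 4) beside it, on axes that start at 0. For mGluR and GluRIB all wit libraries lie below all controls, and for the other 6 genes the groups overlap.

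The AMPA-type subunit gene GluRIB (FBgn0264000, chromosome 3L, 9251978 to 9288522, BDGP6) encodes a channel subunit of excitatory synapses. It was at 111, 111, 111 and 108 CPM in wit libraries 1 to 4, against 116, 118, 118 and 121 CPM in control libraries 1 to 4. The groups stood apart by little, and each was tight. The means were 110 ± 1.26 CPM in wit and 118 ± 2.02 CPM in control nerve cords (SD, n = 4 each), which gave a log2 fold change of -0.10 (SE 0.03, adjusted p = 0.0469 by edgeR). The call survived the loss of wit replicate 1 alone: with any of the other 7 libraries left out, adjusted p ran from 0.0525 to 0.115, and without the filter on low counts it was 0.0971.

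The other AMPA-type subunit gene, GluRIA (FBgn0004619, chromosome 3L, 6624032 to 6635059), was at 79.1, 87.5, 87.0 and 90.4 CPM in wit libraries 1 to 4, against 83.6, 82.3, 84.4 and 84.2 CPM in controls. Wit replicate 1 was the lowest of all 8 libraries and the other wit libraries were above every control. The log2 fold change was 0.04 (95% interval -0.05 to 0.13, edgeR adjusted p = 0.541). Per kilobase of exon, the ratio of GluRIA to GluRIB was 1.35, 1.49, 1.47 and 1.57 in wit libraries 1 to 4, against 1.36, 1.31, 1.35 and 1.31 in controls, so that 3 wit libraries were above all controls and wit replicate 1 was not.

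The NMDA-type receptor is known as a coincidence detector, and Nmdar1 encodes the subunit that every such receptor needs. Nmdar1 (FBgn0010399, chromosome 3R, 5508842 to 5523328) was at 106, 101, 110 and 102 CPM in wit libraries 1 to 4, against 98.8, 99.1, 100 and 104 CPM in controls. The highest control lay above 2 of the wit libraries. The log2 fold change was 0.06 (95% interval -0.02 to 0.14, edgeR adjusted p = 0.275).

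Its partner Nmdar2 (FBgn0053513, chromosome X, 1483625 to 1507809) had 202, 188, 203 and 185 CPM in wit libraries 1 to 4, against 200, 208, 216 and 219 CPM in controls. Wit replicates 1 and 3 fell within the range of the controls and wit replicates 2 and 4 below it. The means were 195 ± 9.64 CPM in wit and 211 ± 8.63 CPM in control nerve cords, with a log2 fold change of -0.11 (95% interval -0.21 to -0.02), which did not pass the test over all genes (edgeR adjusted p = 0.106). It passed without wit replicate 1 (adjusted p = 0.0425) and with weighted limma-voom (adjusted p = 0.0444).

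Set against each other within a library, the NMDA-type subunits gave ratios that did not overlap between genotypes, though each gene alone overlapped. The same held for the kainate-type subunits, and not for the AMPA-type subunits. Per kilobase of exon, the ratio of Nmdar1 to Nmdar2 was 1.01, 1.04, 1.04 and 1.07 in wit libraries 1 to 4, against 0.953, 0.919, 0.893 and 0.913 in controls. All 4 wit ratios lay above all 4 control ratios, with means of 1.04 ± 0.0233 in wit and 0.920 ± 0.0247 in controls. The size of this ratio, though not the order of the libraries, depends on the gene lengths used. The ratio of KaiR1D to Ekar was 60.6, 41.9, 61.0 and 56.8 in wit libraries 1 to 4, against 80.5, 71.8, 61.5 and 89.3 in controls, so that every wit ratio lay below every control ratio, by little between wit replicate 3 and control replicate 3. It rests on Ekar's 46 to 80 counts per library. These ratios were formed after the files were in hand and no test was made of them. How often the ratio of a pair of genes separates the genotypes was not determined, so nothing particular to these pairs is read from it. Of single genes, 11.7% had every wit library below every control and 8.82% every wit library above.

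**Figure D2:**
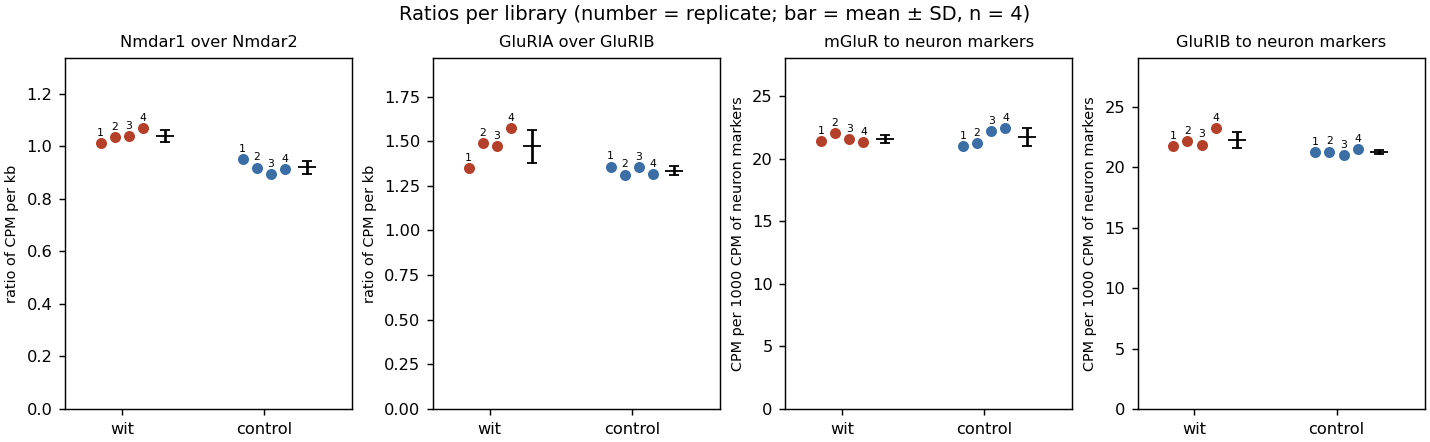
Ratios per library for wit (red, left) and control (blue, right), with replicate numbers and the mean ± SD (n = 4), on axes that start at 0. The first panels give Nmdar1 over Nmdar2 and GluRIA over GluRIB in CPM per kilobase of exon, and the last panels give mGluR and GluRIB in CPM per 1000 CPM of summed neuron markers. Nmdar1 over Nmdar2 is 1.01 to 1.07 in wit and 0.893 to 0.953 in control libraries, whereas mGluR relative to neuron markers overlaps between genotypes.

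Of the kainate-type subunits, KaiR1D is known from presynaptic terminals of larval motor neurons. KaiR1D (FBgn0038837, chromosome 3R, 20860187 to 20866231) was at 160, 161, 171 and 164 CPM in wit libraries 1 to 4, against 163, 174, 167 and 173 CPM in controls. The groups overlapped widely, and the log2 fold change was -0.05 (95% interval -0.12 to 0.03, edgeR adjusted p = 0.437).

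Ekar, which is known from photoreceptors, was scarce in the nerve cord. Ekar (FBgn0039916, chromosome 4, 636131 to 646556) had 46, 80, 75 and 70 counts in wit libraries 1 to 4, or 2.18, 3.16, 2.31 and 2.38 CPM, against 47, 53, 62 and 51 counts, or 1.67, 1.99, 2.24 and 1.60 CPM, in controls. Wit replicate 2 was the highest library, and control replicate 3 lay above wit replicate 1. The log2 fold change of 0.42 was the largest of the 8 genes and the least precise (SE 0.17, 95% interval 0.05 to 0.80), and it did not pass the test over all genes (edgeR adjusted p = 0.124).

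The metabotropic receptor gene mGluR encodes the fly's G-protein-coupled glutamate receptor, which is known to couple to inhibitory G proteins. mGluR (FBgn0019985, chromosome 4, 936819 to 949441) was at 109, 110, 110 and 99.5 CPM in wit libraries 1 to 4, against 115, 118, 124 and 126 CPM in controls. Every wit library was below every control, and wit replicate 4 was the lowest. The means were 107 ± 5.03 CPM in wit and 121 ± 5.45 CPM in control nerve cords (SD, n = 4 each), with a log2 fold change of -0.18 (SE 0.04, 95% interval -0.27 to -0.08, edgeR adjusted p = 0.0225). The call was lost without wit replicate 4 (adjusted p = 0.0537), control replicate 3 (0.0755) or control replicate 4 (0.0688).

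GluClalpha (FBgn0024963, chromosome 3R, 19730715 to 19775231), whose product forms inhibitory chloride channels and is the target of the drug ivermectin, varied as much within genotypes as between them. It was at 266, 255, 286 and 246 CPM in wit libraries 1 to 4, against 249, 270, 280 and 285 CPM in controls. The highest and the lowest library were both wit. The log2 fold change was -0.04 (95% interval -0.16 to 0.07, edgeR adjusted p = 0.630).

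Of the 8 genes 5 lie on chromosome 3, which carries wit and of which the genotypes differ in 1 whole copy. GluRIA lies 2552315 bases and GluRIB 5180261 bases from wit on the same arm. Of genes tested on chromosome 3, 15.2% passed the test, and of genes elsewhere 14.4% did. The gene with the lower adjusted p of the called ones, mGluR, is on chromosome 4. For GluRIB an effect of linked sequence and one of wit cannot be told apart. For mGluR, too, an effect of other sequence on the chromosome 3 copy and one of wit cannot be told apart. No exon of the 8 genes shares bases with an exon of another annotated gene, apart from 57 bases of mGluR that are also annotated as a transposable element.

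Per kilobase of exon, the order of control levels was KaiR1D at 47.0 ± 1.41, GluClalpha at 40.9 ± 2.39, Nmdar2 at 26.2 ± 1.07, Nmdar1 at 24.1 ± 0.535, GluRIA at 21.9 ± 0.258, mGluR at 19.0 ± 0.858, GluRIB at 16.5 ± 0.281 and Ekar at 0.631 ± 0.100 CPM per kb (SD, n = 4 each). No neighbours in that order overlapped over the 4 control libraries, though the lowest Nmdar2 and the highest Nmdar1 value were both 24.9 CPM per kb. In wit mutants the levels were 45.5 ± 1.40 for KaiR1D, 39.7 ± 2.56 for GluClalpha, 25.2 ± 0.932 for Nmdar1, 24.2 ± 1.20 for Nmdar2, 22.6 ± 1.27 for GluRIA, 16.8 ± 0.792 for mGluR, 15.3 ± 0.176 for GluRIB and 0.844 ± 0.148 for Ekar. There Nmdar1 and Nmdar2 overlapped, with Nmdar1 at 24.3 to 26.3 and Nmdar2 at 23.0 to 25.3 CPM per kb. Their order in wit mutants depended on the gene length used. With the longest transcript, Nmdar2 averaged 28.7 in wit and 31.1 in control libraries, against 25.2 and 24.1 for Nmdar1. The lead of KaiR1D over GluClalpha also depended on the gene length used. With the longest transcript in place of all exons, GluClalpha averaged 46.5 in wit and 47.9 in control libraries, against 45.5 and 47.0 for KaiR1D. The control libraries of KaiR1D and GluClalpha then overlapped.

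**Figure D3:**
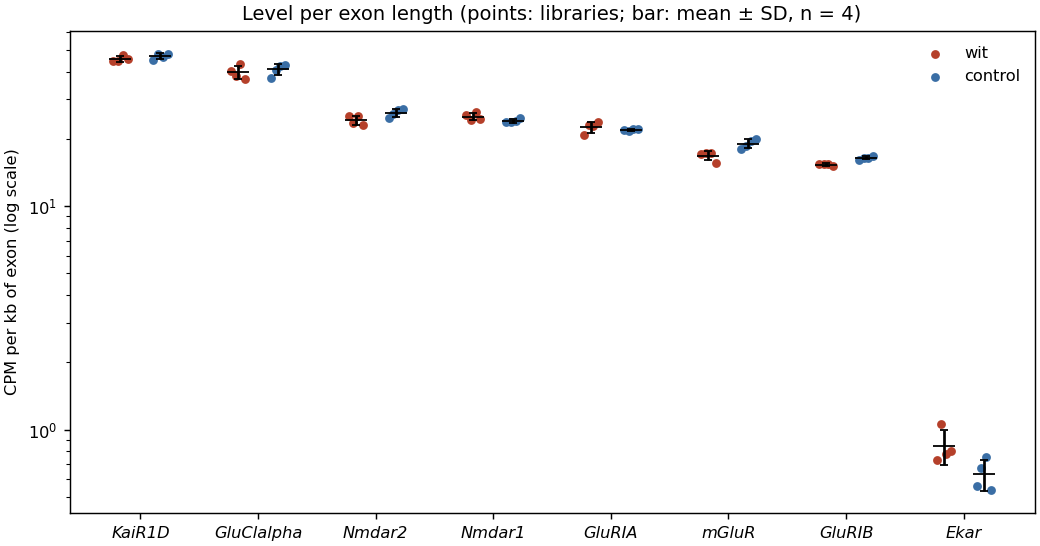
Levels of the 8 genes in CPM per kilobase of exon (log scale), ordered by the control mean, with points for wit (red, left) and control (blue, right) libraries and bars for the mean ± SD (n = 4). The means of 7 genes lie between 15.3 and 47.0 CPM per kb in both genotypes, and Ekar lies at 0.844 in wit and 0.631 in controls.

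Levels of neuron markers were also lower in wit libraries, as mGluR was. The 6 neuron markers listed summed to 4667 to 5087 CPM in wit and 5455 to 5624 CPM in control libraries, and nSyb, Syt1, brp and fne passed the edgeR test as lower, while elav had -0.11 (adjusted p = 0.0918) and Rbp9 0.03 (adjusted p = 0.775). Leaving out 1 library ended the calls of Syt1 (wit 2 or 4, control 2, 3 or 4; adjusted p to 0.102), brp (the same libraries; to 0.0925) and fne (wit 3 or 4 or any control; to 0.108), and not that of nSyb. Over all genes tested, 8.66% passed as lower in edgeR. In bulk tissue, fewer cells of a type and less RNA per cell cannot be told apart.

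Per 1000 CPM of neuron markers, mGluR was at 21.4, 22.0, 21.6 and 21.3 in wit libraries 1 to 4, against 21.0, 21.2, 22.2 and 22.4 in controls. These groups overlapped, with means of 21.6 ± 0.320 in wit and 21.7 ± 0.707 in controls. GluRIB, which was lower in CPM, was higher by this measure, at 21.8, 22.2, 21.9 and 23.2 in wit libraries, against 21.3, 21.3, 21.0 and 21.5 in controls. By this ratio, formed after the values were seen and given without a test, 6 of the 8 genes had every wit library above every control, 0 had every wit library below, and mGluR and Nmdar2 overlapped. The marker sum was lower in every wit library, and by the same ratio 42.3% of all genes tested had every wit library above every control and 3.52% every wit library below, so that nothing particular to the receptor genes is read from that count. The rise of GluRIB and the near-equal means of mGluR by this measure depend on the markers summed. The log2 ratio of means, wit over control, was -0.17 for the marker sum and -0.11 for elav alone. The log2 fold change was -0.10 for GluRIB and -0.18 for mGluR. Among the markers it ran from -0.22 for nSyb to 0.03 for Rbp9.

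Among other ionotropic glutamate receptor genes and the auxiliary subunit gene Neto, 0 of the 5 that could be tested passed edgeR's test, as 14.8% of all genes did. At an unadjusted p under 0.05 there was 1, CG11155, which DESeq2 and weighted limma-voom both called higher. This gene on chromosome 4, predicted to encode a kainate-type subunit, had the highest level per kilobase among the glutamate receptor genes examined, at 81.8 ± 3.02 CPM per kb in wit and 76.0 ± 1.26 CPM per kb in control nerve cords. All its wit libraries lay above all controls, with a log2 fold change of 0.11 (SE 0.04, edgeR adjusted p = 0.0761, and 0.0374 without wit replicate 1).

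Neto, an auxiliary subunit known from the fly neuromuscular junction, was at 30.1 ± 1.79 CPM in wit and 32.0 ± 1.21 CPM in controls (adjusted p = 0.252). The muscle-type subunit genes GluRIIA to GluRIIE were each under 0.17 CPM per kb in wit and under 0.26 CPM per kb in control libraries on average. Of these GluRIIA and GluRIID were tested, with adjusted p of 0.915 and 0.206, and the kainate-type gene Grik, at 1.53 CPM in wit and 1.38 CPM in controls, had 0.640. The gene clumsy was at 0.0393 CPM in wit and 0.0337 CPM in controls and was not tested.

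Among genes that release and clear glutamate, all that passed were lower. These were VGlut, Gdh, Eaat1 and Gs2, with log2 fold changes larger in size than that of mGluR, a difference that was not tested. Of 10 such genes 4 fell and 0 rose in edgeR, with 0 higher also at an unadjusted p under 0.05 and in DESeq2 and weighted limma-voom. Over all genes tested, 8.66% passed as lower and 6.12% as higher in edgeR. In either direction DESeq2 called 16.2% of all genes and weighted limma-voom 23.3%. The list was not tested against these shares. VGlut, which loads glutamate into vesicles, was at 429 ± 16.9 CPM in wit and 684 ± 15.8 CPM in control nerve cords (log2 fold change -0.67, SE 0.04, adjusted p = 6.99e-07). Gdh, the glutamate dehydrogenase gene, was at 268 ± 33.0 CPM in wit and 348 ± 4.21 CPM in controls (-0.38, adjusted p = 0.00738). The glial transporter gene Eaat1 (-0.21, adjusted p = 0.0222) also fell. So did the glutamine synthetase gene Gs2, at 285 ± 99.0 CPM in wit and 568 ± 7.31 CPM in controls (-0.995, adjusted p = 0.0355). Eaat1 lost its call without wit replicate 2 or 4 or control replicate 2 or 3 (adjusted p to 0.0768), and Gs2 without wit replicate 2 or 3 or any control (to 0.0893) and without the filter on low counts (0.0580). Of those that did not pass, Eaat2 had a log2 fold change of -0.02, Gs1 -0.10, gb -0.02, Got1 -0.00 and Got2 -0.10. Eaat1 and Gs2 are also glial markers, of which 4 of 8 fell in edgeR, beside the 8.66% of all genes that did. The other glial markers that fell were wrapper (-0.38, adjusted p = 3.62e-05) and Gat (-0.65, adjusted p = 0.0402).

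Ligand-gated chloride channel genes related to GluClalpha gave 1 call among the 5 tested, where 14.8% of all genes passed. The pH-sensitive channel gene pHCl-1 fell to 46.9 ± 3.46 CPM in wit, against 60.1 ± 2.28 CPM in controls (-0.36, SE 0.05, adjusted p = 0.000930). The GABA receptor subunit genes Rdl and Lcch3 had -0.13 (adjusted p = 0.195) and -0.09 (adjusted p = 0.0891), Grd had -0.44 at 1.10 CPM in wit and 1.48 CPM in controls (adjusted p = 0.172), and the histamine-gated channel gene HisCl1 had 0.28 (adjusted p = 0.429). The other 5 matched genes of this list were too scarce to test.

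Among 25 genes for receptor scaffolds and downstream signalling 6 fell and 0 rose in edgeR, where 8.66% of all genes fell and 6.12% rose. At an unadjusted p under 0.05 there was 1 higher, and 0 were higher in DESeq2 and weighted limma-voom. This list was not tested against the shares over all genes. Grip, whose mammalian counterparts bind AMPA-type receptors through PDZ domains, fell to 15.3 ± 1.63 CPM in wit, against 26.3 ± 1.78 CPM in controls (-0.78, SE 0.08, adjusted p = 3.87e-05). Pka-C1, the catalytic subunit gene of protein kinase A, had -0.20 (adjusted p = 0.00526), and Galphao, which encodes the alpha subunit of an inhibitory-type G protein, had -0.20 (adjusted p = 0.0105). The neuroligin gene Nlg3 had -0.18 (adjusted p = 0.0118), the membrane guanylate kinase gene metro -0.16 (0.0234) and the G protein gene Galphaq -0.12 (0.0454).

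The calls of Grip, Pka-C1, Galphao and Nlg3 held without any 1 library. That of metro was lost without wit replicate 2 or 4 or control replicate 3 (adjusted p to 0.0813), and that of Galphaq without wit replicate 3 or 4 or any control (to 0.132) and without the filter on low counts (0.0714). CaMKII, the kinase gene, had 0.03 (adjusted p = 0.673), the scaffold gene dlg1 0.01 (0.944), homer -0.05 (0.285) and Prosap -0.06 (0.420), without passing. The median log2 fold change was -0.06 for this list, -0.10 for release and clearance and 0.01 over all genes.

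**Figure D4:**
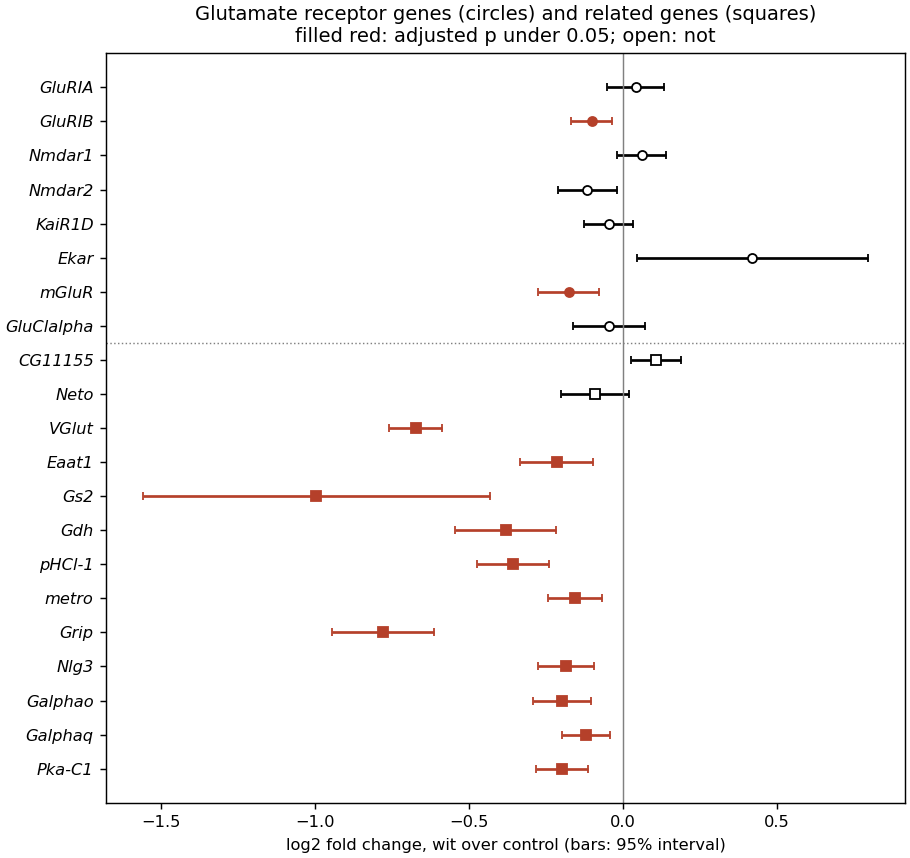
Log2 fold change, wit over control, with its 95% interval for the 8 central glutamate receptor genes (circles), for CG11155 and Neto, and for every gene of the release, chloride channel and scaffold lists that passed the test (squares). Filled red marks an adjusted p under 0.05. The receptor genes lie between -0.18 and 0.42, while Grip and VGlut lie at -0.78 and -0.67 and Gs2 lies farthest to the left, with the widest interval.

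For the called receptor genes, the genes of closest profile were sought among 8537 others with a mean of 1 CPM or more, as the root mean square difference of log2 CPM over the 8 libraries after each gene was centred on its own mean. Closest to GluRIB were ssx, kek1 and hts, at 0.014, 0.014 and 0.016 log2 units. Closest to mGluR were Appl, CG31140 and NetB, at 0.022, 0.030 and 0.031 log2 units. Their log2 fold changes were -0.11 for ssx, -0.11 for kek1, -0.09 for hts, -0.19 for Appl, -0.15 for CG31140 and -0.20 for NetB. Values near those of GluRIB and mGluR follow from the way these genes were chosen. In edgeR hts was not called (adjusted p = 0.0943) and the others passed as lower. Of 14 alternatives, ssx and kek1 each passed in 6, CG31140 in 8, Appl in 13 and NetB in 14. All 6 share the libraries, the depth and the scaling with the receptor genes.

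**Figure D5:**
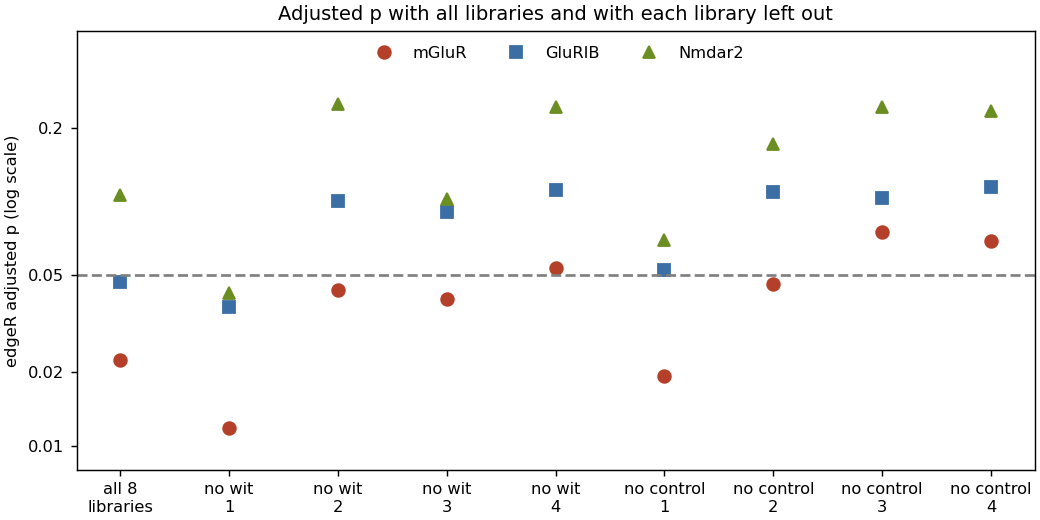
Adjusted p of edgeR's test (log scale) for mGluR (circles), GluRIB (squares) and Nmdar2 (triangles) with all 8 libraries and with each wit or control library left out, and the threshold of 0.05 as a dashed line. mGluR ranges from 0.0119 to 0.0755, GluRIB from 0.0371 to 0.115 and Nmdar2 from 0.0425 to 0.251, and all of them are lowest without wit replicate 1.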

How the data were processed

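Paired reads of 42 bp came from stranded mRNA libraries, per the labels' protocols. The authors deposited an estimated count for each gene. Per the submitters' processing notes, kallisto 0.43.0, DESeq2 and build BDGP6 were used. The sources used here do not give the step from transcripts to genes. Rounding preceded all tests, since 31.36% of values had a fraction.

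Low genes were removed with filterByExpr (edgeR 4.0.16, minimum count 10). After TMM scaling, wit was compared with control by the robust quasi-likelihood test of edgeR without covariates, with p-values adjusted by Benjamini-Hochberg over all genes (threshold 0.05). P-values are two-sided. CPM use TMM-scaled totals, and 95% intervals come from the same fit. Symbols came from a table of gene identifiers, which named all but 227 of 14175, and listed names without a match were not analysed here. Exon lengths came from Ensembl release 115. R 4.3.3, limma 3.58.1, DESeq2 1.42.0 and matplotlib 3.10.9 were also used.

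The receptor genes and lists were chosen with earlier results of these data known. Named were the 8 receptor genes, every called gene and up to 4 genes of smallest adjusted p per related list, and the 3 nearest profiles per called receptor gene. Other genes named, with the neuron markers, were chosen after their values were seen. Alternatives were RLE scaling, DESeq2's Wald test, limma-voom weighted by library quality, 2 other filters, a replicate block and leaving out each library.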

Additional observations from a re-analysis of the deposited data

Results flagged for a closer look

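The mGluR value of wit replicate 4, 99.5 CPM, stood far below the other wit libraries, at 109 to 110 CPM, relative to their range. It was the 1 group flagged of 16 checked for the 8 receptor genes, and chance flags about 1 in 20 groups. Without that library the log2 fold change of mGluR was -0.14 (edgeR adjusted p = 0.0537). The same library had the lowest sum of neuron markers, 4667 CPM, and its mGluR per 1000 CPM of neuron markers was 21.3, within the 21.0 to 22.4 of the controls. This ratio depends on the markers summed.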

How the results depend on the processing

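None of the 8 receptor genes changed the sign of its log2 fold change in any of the 14 alternatives. The count of receptor genes lower in wit mutants was 2. It was 3 with limma-voom weighted by library quality, 1 without a low-count filter, 0 with the replicate block, and 0 to 3 when 1 library was left out. Over all genes, 562 were higher in wit mutants, 1001 with weighted limma-voom, 301 with the replicate block and 304 to 1060 when 1 library was left out. There were 795 lower, 1133 with weighted limma-voom, 553 with the block and 524 to 1124 with 1 library left out. GluRIB passed in 5 of 14 alternatives and had an adjusted p of 0.0971 without a filter and 0.109 with the block, and mGluR passed in 10, with 0.0736 with the block. With the block the adjusted p of called genes in the related lists and neuron markers was also 0.0561 for brp, 0.0607 for Gs2, 0.0660 for Eaat1, 0.0660 for fne, 0.0728 for Syt1 and 0.0759 for Galphaq. The replicate numbers are shared between genotypes, but deviations of same-numbered libraries correlated at -0.07, 0.10, -0.04 and -0.33, and most libraries did not correlate best with their own number, so the numbers were not taken to pair them. The neuron marker gene Rbp9, with 0.03, ranged from -0.014 to 0.064 when 1 library was left out. The cause of these shifts was not tested. Precision limits Ekar, with 46 to 80 counts per library, while the other receptor genes had 1669 or more.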
